A study of Mus musculus with 6 samples.

Results

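The genes described here make cholesterol and fatty acids: the enzymes of the mevalonate and sterol pathways, the enzymes that build, lengthen and desaturate fatty acids, and the sterol regulatory element-binding protein (SREBP) system that controls both. They were listed by function, as 33 gene symbols, and each was read from its brightest probe set that carries a single symbol. Of the 33 genes, 31 were measured, out of 19938 genes tested in all. Acat2 and Acsl3 have no such probe set in the annotation used and were not analysed here. The data come from 6 Affymetrix arrays of C57BL/6 keratinocytes, the epithelial cells of the epidermis, isolated from skin of embryos at E18.5, shortly before birth, and labelled female. Cells grew for 2 to 5 days, then for another 3 to 5 days after calcium was added to induce differentiation. Each of 3 genotypes has 2 arrays and each array holds RNA of 2 mice. Control animals were Ovol2flox/+; Ovol1+/- or Ovol2flox/+;K14-Cre, so every control carried at least the floxed Ovol2 allele. The Ovol1 KO animals were Ovol1-/-, and the Ovol1/2 double knockouts (DKO) were Ovol2flox/-;K14-Cre; Ovol1-/-. K14-Cre is driven by the keratin 14 promoter and deletes in basal keratinocytes and their progeny. The labels do not say which control genotype was on which array. The products of Ovol1 and Ovol2 are zinc finger factors that bind DNA, and the series asked what changes in differentiating keratinocytes that lack 1 or both.

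Cells make cholesterol from acetyl-CoA through mevalonate, farnesyl diphosphate, squalene and lanosterol. When membrane sterol is low, the escort protein SCAP carries SREBP to the Golgi, where it is cut, and the freed fragment enters the nucleus and switches on the synthesis genes. When sterol is plentiful, INSIG holds SCAP in the endoplasmic reticulum and the genes are turned down. In epidermis, cholesterol and long-chain fatty acids are needed for the lipid layers of the stratum corneum, the water barrier of the skin.

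SREBP acts with general promoter factors, so the promoters were searched on both strands for 5 short motifs: the sterol regulatory element TCACNCCAC, the CCAAT box, the E-box CACGTG, the SP1 box GGGCGG and the Ovol core CCGTTA. RefSeq promoter sequences, 250 bases before to 50 after a start site, were found for 26 of the 33 genes, as 32 promoters. Genes without such a sequence were not searched. The 5 printed here are that of Hmgcs1, the only gene of these 26 with a match to TCACNCCAC, and those of Dhcr7, Sc5d, Insig1 and Tm7sf2. The latter were picked for their DKO values below, and none of them was called in any comparison. Capitals mark matches to any of the motifs, and every sequence reads 5′ to 3′ on the gene's strand.
Hmgcs1 promoter (GRCm38.p6, chr13:119690101-119690400, plus strand): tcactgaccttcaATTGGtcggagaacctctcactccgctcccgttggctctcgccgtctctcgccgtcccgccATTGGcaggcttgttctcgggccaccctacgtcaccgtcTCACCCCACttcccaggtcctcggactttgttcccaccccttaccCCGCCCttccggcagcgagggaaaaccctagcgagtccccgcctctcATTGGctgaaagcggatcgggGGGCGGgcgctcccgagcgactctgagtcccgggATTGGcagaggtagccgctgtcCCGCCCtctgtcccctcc
Dhcr7 promoter (GRCm38.p6, chr7:143829964-143830263, plus strand): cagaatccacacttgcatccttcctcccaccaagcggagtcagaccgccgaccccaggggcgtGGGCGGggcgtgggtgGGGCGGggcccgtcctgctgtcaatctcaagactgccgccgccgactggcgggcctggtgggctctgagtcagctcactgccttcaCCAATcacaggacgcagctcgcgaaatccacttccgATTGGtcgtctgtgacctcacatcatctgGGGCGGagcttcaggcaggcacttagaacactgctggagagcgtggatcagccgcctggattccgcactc
Sc5d promoter (GRCm38.p6, chr9:42264251-42264550, minus strand): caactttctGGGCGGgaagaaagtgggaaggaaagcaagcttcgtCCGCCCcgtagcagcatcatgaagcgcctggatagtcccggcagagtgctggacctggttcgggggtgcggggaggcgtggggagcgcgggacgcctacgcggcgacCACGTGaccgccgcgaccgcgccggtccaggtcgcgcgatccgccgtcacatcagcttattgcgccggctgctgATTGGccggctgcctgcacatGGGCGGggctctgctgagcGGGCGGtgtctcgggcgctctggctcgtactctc
Insig1 promoter (GRCm38.p6, chr5:28071162-28071461, plus strand): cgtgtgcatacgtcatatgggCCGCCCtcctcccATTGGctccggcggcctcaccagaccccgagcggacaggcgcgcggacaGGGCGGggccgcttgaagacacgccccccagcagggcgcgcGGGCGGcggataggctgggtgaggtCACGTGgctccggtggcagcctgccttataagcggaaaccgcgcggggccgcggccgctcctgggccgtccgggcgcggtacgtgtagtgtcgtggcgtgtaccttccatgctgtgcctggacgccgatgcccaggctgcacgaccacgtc
Tm7sf2 promoter (GRCm38.p6, chr19:6067801-6068100, minus strand): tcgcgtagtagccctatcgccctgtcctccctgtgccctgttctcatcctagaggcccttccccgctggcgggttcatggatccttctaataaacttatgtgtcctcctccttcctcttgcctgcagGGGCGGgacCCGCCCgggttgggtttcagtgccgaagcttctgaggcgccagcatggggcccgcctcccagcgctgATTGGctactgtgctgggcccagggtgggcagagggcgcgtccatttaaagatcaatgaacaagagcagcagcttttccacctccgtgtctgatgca
The Dhcr7 sequence is 1 of 3 that RefSeq gives for that gene, the one with the most matches. In Hmgcs1 the sterol regulatory element reads TCACCCCAC and begins 137 bases before the start site. Sc5d and Insig1 each hold CACGTG, beginning 98 and 101 bases before the start. Dhcr7 holds it too, but not in the sequence printed here. The sterol regulatory element was in 1 of the 32 promoters (3.12%), against 1.24% of all 32851 promoters in the table. The CCAAT box was in 21 of 32 (65.6%, against 37.4% of all), the SP1 box in 24 (75%, against 35.7%) and the E-box in 6 (18.8%, against 7.15%). The Ovol core was in 0 of 32, against 2.76% of all promoters. The median GC content was 62.3% in these promoters and 52.7% in all, so the shares of GC-rich motifs were not compared like for like. A match is a run of letters and not a bound site, and the absence of one says only that the letters are not in this window.

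Values are log2(intensity + 16) after quantile normalization, and a difference of 1 on this scale is 2-fold. Levels are compared between arrays and not between genes, since probe sets differ in brightness. Some facts of the arrays bear on every comparison. Xist RNA, made from the silenced X chromosome of female cells, lay between 4.59 and 4.71 on both control arrays and Ovol1 KO 1, and between 11.97 and 12.26 on Ovol1 KO 2 and both DKO arrays. The Y-linked genes Kdm5d, Eif2s3y and Uty split the arrays the same way with the opposite sign, against the female label. Both control arrays lie opposite both DKO arrays in this split, and the Ovol1 KO arrays lie opposite each other. In DKO against control a difference of genotype therefore cannot be told apart from a difference of sex. The signal of Ovol1 lay at 10.27 and 9.85 in control, 10.53 and 10.22 in Ovol1 KO, and 10.58 and 10.59 in DKO. That of Ovol2 lay at 8.12 and 8.82 in control, 9.004 and 8.99 in Ovol1 KO, and 8.71 and 8.32 in DKO. Ovol1 was thus highest in DKO and Ovol2 highest in Ovol1 KO, and neither was called in any comparison. These signals do not show the deletions, and whether the probe sets lie in the deleted parts is not known here. In bulk RNA, fewer cells of a type and less RNA per cell cannot be told apart.

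Of 7 keratinocyte markers, Krt5 lay between 13.68 and 13.94 on all arrays, Krt14 between 13.61 and 13.67 and Dsg3 between 12.61 and 12.85. Trp63 lay between 10.96 and 11.88 and Ivl between 8.99 and 10.81, and neither was called in DKO against control. On the control and Ovol1 KO arrays Krt1 and Krt10 lay at 8.89 to 9.77. Krt1 and Krt10, keratins of the layers above the basal one, rose in DKO against control by 4.15 and 4.14 (limma adjusted p = 0.022 and 0.0035), with Krt1 at 14.70 on DKO 1, the top of the normalized scale, and 12.40 on DKO 2, so the size of its rise is limited by that ceiling. Markers of lipid-storing cells were dim on a scale that starts at 4. Adipoq and Plin1, the adipocyte genes of adiponectin and perilipin, lay at 6.09 to 6.47 and 7.61 to 8.07. Of 6 sebocyte markers, 5 lay at or below 6.64 on every array. The sixth, the lipid droplet gene Cidea, lay at 11.09 and 10.46 in control, 11.003 and 10.68 in Ovol1 KO, and 7.85 and 7.94 in DKO. In DKO it fell by 2.88 against control (limma adjusted p = 0.0030). The summed level of the 6 sebocyte markers ranged from 10.71 to 11.27 in control, 10.90 to 11.15 in Ovol1 KO and 9.04 to 9.12 in DKO. Cidea alone carried this drop, since the other 5 had log2 fold changes from 0.020 to 0.15. The summed level of the 5 measured adipocyte markers ranged from 9.21 to 9.23 in control, 8.96 to 9.22 in Ovol1 KO and 9.41 to 9.44 in DKO. Schwann cell markers (2 measured) summed to between 10.85 and 10.99 on the control and Ovol1 KO arrays. They summed to 10.14 and 10.26 on the DKO arrays, where Mbp fell by 1.15 (limma adjusted p = 0.015) and S100b differed by 0.19 and was not called. The 4 endothelial markers summed to between 9.31 and 10.81 on the control and Ovol1 KO arrays, and to 8.44 and 8.38 in DKO, with 0 called. Kdr and Pecam1 had log2 fold changes of -2.78 and -1.1 in DKO against control, while Cdh5 and Tek had 0.09 and -0.027. Of 6 fibroblast markers Pdgfra fell by 1.06 (adjusted p = 0.031) and 5 did not pass. The part of these markers in the DKO differences below was not tested.

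The synthesis genes were well above the low end of the scale on every array, from 8.84 for Tm7sf2 on Ovol1 KO 2 to 13.46 for Scd2 on Ovol1 KO 1. For 29 of the 31 genes all 6 arrays lay within 1 log2 unit, the exceptions being Tm7sf2 (range 1.39) and Dhcr7 (range 1.11). The smallest range, 0.13, was that of Hmgcs1. The median range over the arrays was 0.45 for the 31 genes, against 0.52 for all genes and 0.53 for the 6737 genes at least as bright as the dimmest of them.

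**Figure D1:**
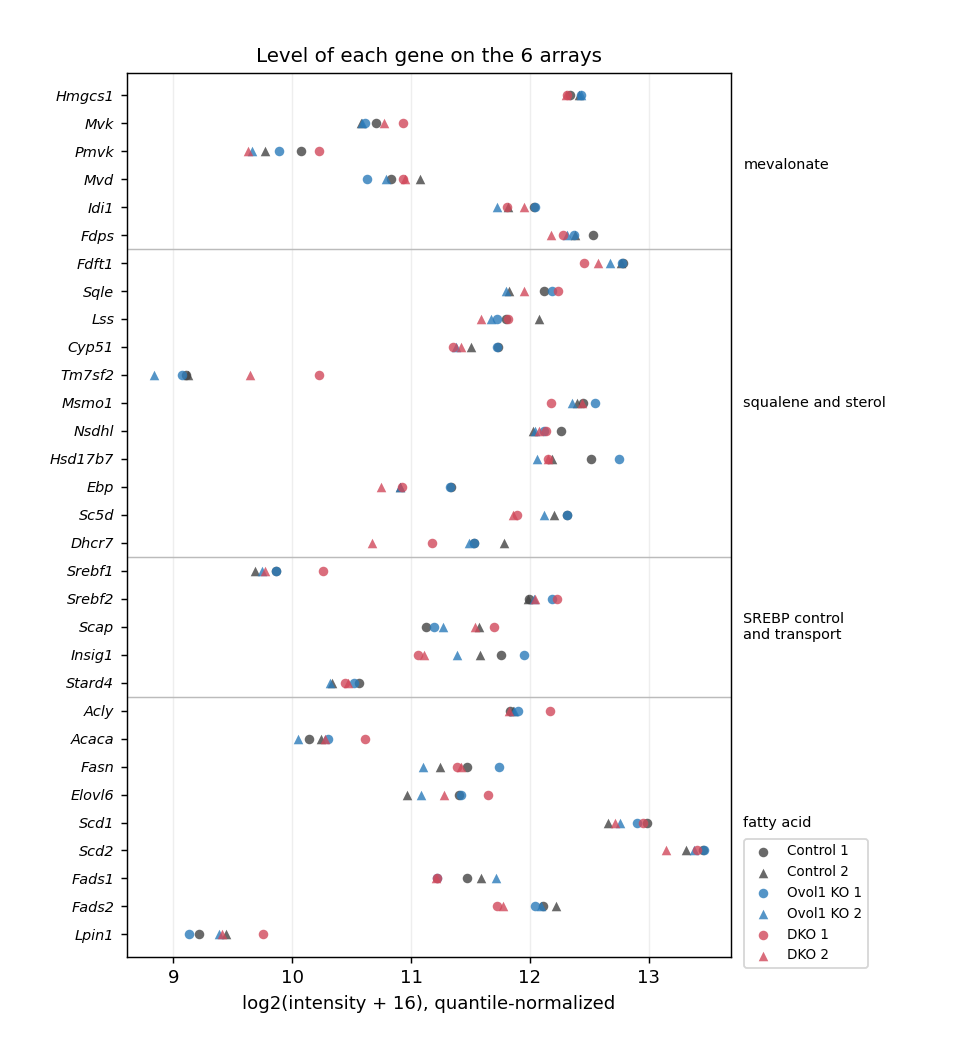
Level of each of the 31 genes, as log2(intensity + 16), on the 6 arrays, with circles for replicate 1 and triangles for replicate 2 of each genotype and lines between the 4 roles. Points of one gene lie close together except for Tm7sf2 (8.84 to 10.23) and Dhcr7 (10.67 to 11.78).

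Cells without both factors were set against control first. No synthesis gene passed: 0 of 31 were higher and 0 lower at a limma adjusted p below 0.05, against 0.943% of all genes higher, 2.26% lower and 3.2% in either direction. A count of 0 among 31 genes is near that background and does not set them apart. At an unadjusted p below 0.05 there were 6, 1 higher and 5 lower, against 14.5% of all genes. The median log2 fold change was -0.040, with 17 of 31 below 0 (54.8%, against 45.7% of all genes) and 14 above, and the median over all genes was 0.024. It changed sign without control 1 (0.045) and was -0.14 without control 2, so its direction rests on single arrays. The 95% confidence interval of the difference, not adjusted for the number of genes, lay within 2-fold either way for 28 of the 31 genes, and for 80.5% of all genes. The genes whose interval reached past 2-fold were Tm7sf2, Dhcr7 and Insig1.

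Of the 7 mevalonate genes 6 were measured, and their differences in DKO ran from -0.23 to 0.21. Hmgcs1, which encodes the synthase that makes HMG-CoA, lay at 12.34 and 12.42 in control, 12.43 and 12.43 in Ovol1 KO, and 12.31 and 12.30 in DKO. The DKO arrays were the lowest of the 6, by a small margin, and the log2 fold change against control was -0.071 (95% interval -0.28 to 0.14, limma adjusted p = 0.84). Fdps, which makes farnesyl diphosphate, lay at 12.53 and 12.38 in control, 12.37 and 12.31 in Ovol1 KO, and 12.28 and 12.18 in DKO. Its DKO arrays were again lowest, with a log2 fold change of -0.23 (95% interval -0.47 to 0.012, adjusted p = 0.37). Mvk, the mevalonate kinase gene, lay at 10.70 and 10.57 in control, 10.61 and 10.59 in Ovol1 KO, and 10.93 and 10.77 in DKO, where both arrays were the highest of the 6 (log2 fold change 0.21, 95% interval -0.15 to 0.57, adjusted p = 0.63). Groups overlapped for Pmvk, Mvd and Idi1, the genes of the next kinase, the decarboxylase and the isomerase, whose log2 fold changes were 0.0036, -0.020 and -0.049.

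Of the 11 genes from squalene to cholesterol, 9 had a log2 fold change below 0 and 2 above, with a median of -0.23. The widest differences were those of Tm7sf2 and Dhcr7, in opposite directions. Dhcr7, the reductase of the last step to cholesterol, lay at 11.53 and 11.78 in control, 11.53 and 11.49 in Ovol1 KO, and 11.18 and 10.67 in DKO. Both DKO arrays were below the other 4, and the DKO arrays differed from each other by more than the control arrays did. Its log2 fold change was -0.73 (SE 0.19, 95% interval -1.19 to -0.27, limma adjusted p = 0.12), and it was -0.99 without DKO 1 and -0.48 without DKO 2.

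Sc5d, the sterol desaturase acting just before Dhcr7, lay at 12.31 and 12.20 in control, 12.31 and 12.12 in Ovol1 KO, and 11.89 and 11.86 in DKO. The DKO arrays lay close together and below the rest, with a log2 fold change of -0.38 (SE 0.11, 95% interval -0.64 to -0.12, limma adjusted p = 0.16). With the Xist level as a covariate it was -0.19. Fdft1, the squalene synthase gene, lay at 12.78 and 12.76 in control, 12.78 and 12.68 in Ovol1 KO, and 12.45 and 12.57 in DKO, again lowest in DKO (log2 fold change -0.26, SE 0.087, adjusted p = 0.22). Its second probe set gave -0.20.

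Tm7sf2, a sterol reductase that acts after lanosterol is demethylated, went the other way. It lay at 9.10 and 9.12 in control, 9.07 and 8.84 in Ovol1 KO, and 10.23 and 9.64 in DKO. Both DKO arrays were above the other 4, and DKO 1 stood further off than DKO 2. The log2 fold change was 0.82 (SE 0.24, 95% interval 0.25 to 1.39, limma adjusted p = 0.16), and was 0.53 without DKO 1 and 1.12 without DKO 2. The other genes of this arm, Sqle, Lss, Cyp51, Msmo1, Nsdhl, Hsd17b7 and Ebp, had log2 fold changes from -0.28 for Ebp to 0.12 for Sqle. Sqle encodes squalene epoxidase, a rate-limiting enzyme of the pathway, and its groups overlapped. The gap between control 1 and control 2 was 0.43 for Ebp and 0.32 for Hsd17b7, larger than the difference from DKO in either case.

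Among the 5 genes of SREBP control and sterol transport, Insig1 had the largest difference. Insig1, itself a target of SREBP and the sensor that restrains it, lay at 11.76 and 11.58 in control, 11.95 and 11.38 in Ovol1 KO, and 11.06 and 11.11 in DKO. The DKO arrays were the lowest, while the Ovol1 KO arrays lay on both sides of the controls. The log2 fold change was -0.59 (SE 0.20, 95% interval -1.05 to -0.12, limma adjusted p = 0.22). With the Xist level as a covariate it was -0.0081, in a fit whose Xist term rests mostly on the gap between Ovol1 KO 1 and Ovol1 KO 2. The SREBP genes themselves differed less. Srebf2, the form that drives sterol genes, lay at 11.99 and 11.98 in control and 12.23 and 12.04 in DKO (log2 fold change 0.15, adjusted p = 0.67), and was 0.31 with the Xist covariate. For Srebf1, the form that drives fatty acid genes, DKO 1 stood alone at 10.25, while DKO 2 was at 9.77 and the controls at 9.86 and 9.69. Scap, the escort, had a log2 fold change of 0.27 (adjusted p = 0.59), and its controls, at 11.13 and 11.57, lay further apart than that. The sterol carrier gene Stard4 had one of 0.0095 with overlapping groups.

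Of the 10 fatty acid genes 9 were measured, with a median log2 fold change of 0.048. Fads2, a desaturase that makes polyunsaturated fatty acids, had the smallest p of all 31 genes. It lay at 12.11 and 12.22 in control, 12.04 and 12.10 in Ovol1 KO, and 11.72 and 11.77 in DKO. The DKO arrays lay below the other 4, with a log2 fold change of -0.42 (SE 0.10, 95% interval -0.67 to -0.17, limma adjusted p = 0.10), and leaving out any 1 array kept it between -0.48 and -0.36. Fads1, its partner desaturase, lay at 11.47 and 11.59 in control, 11.22 and 11.71 in Ovol1 KO, and 11.21 and 11.21 in DKO. Ovol1 KO 1 was almost level with the DKO arrays, and the log2 fold change against control was -0.32 (95% interval -0.75 to 0.11, adjusted p = 0.52). With the Xist level as a covariate Fads1 was -0.82 and Fads2 -0.47, neither of them called.

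The core synthesis steps differed little. Fasn, the fatty acid synthase, lay at 11.47 and 11.25 in control, 11.74 and 11.10 in Ovol1 KO, and 11.39 and 11.42 in DKO. Both DKO arrays sat inside the spread of the others (log2 fold change 0.048, 95% interval -0.47 to 0.56). Scd1, a stearoyl-CoA desaturase gene, lay at 12.98 and 12.66 in control, 12.90 and 12.76 in Ovol1 KO, and 12.95 and 12.72 in DKO. Its log2 fold change was 0.012 (95% interval -0.31 to 0.33). Acaca, the carboxylase that commits acetyl-CoA to fatty acids, was higher on both DKO arrays than on both controls, but DKO 2 (10.28) lay below Ovol1 KO 1 (10.30). Its log2 fold change was 0.25 (adjusted p = 0.66), and 0.31 on its second probe set. With the Xist covariate it was 0.52. The groups overlapped for Acly, which supplies acetyl-CoA, for the elongase gene Elovl6, for Scd2 and for the phosphatidate phosphatase gene Lpin1, with log2 fold changes of 0.15, 0.28, -0.11 and 0.25.

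**Figure D2:**
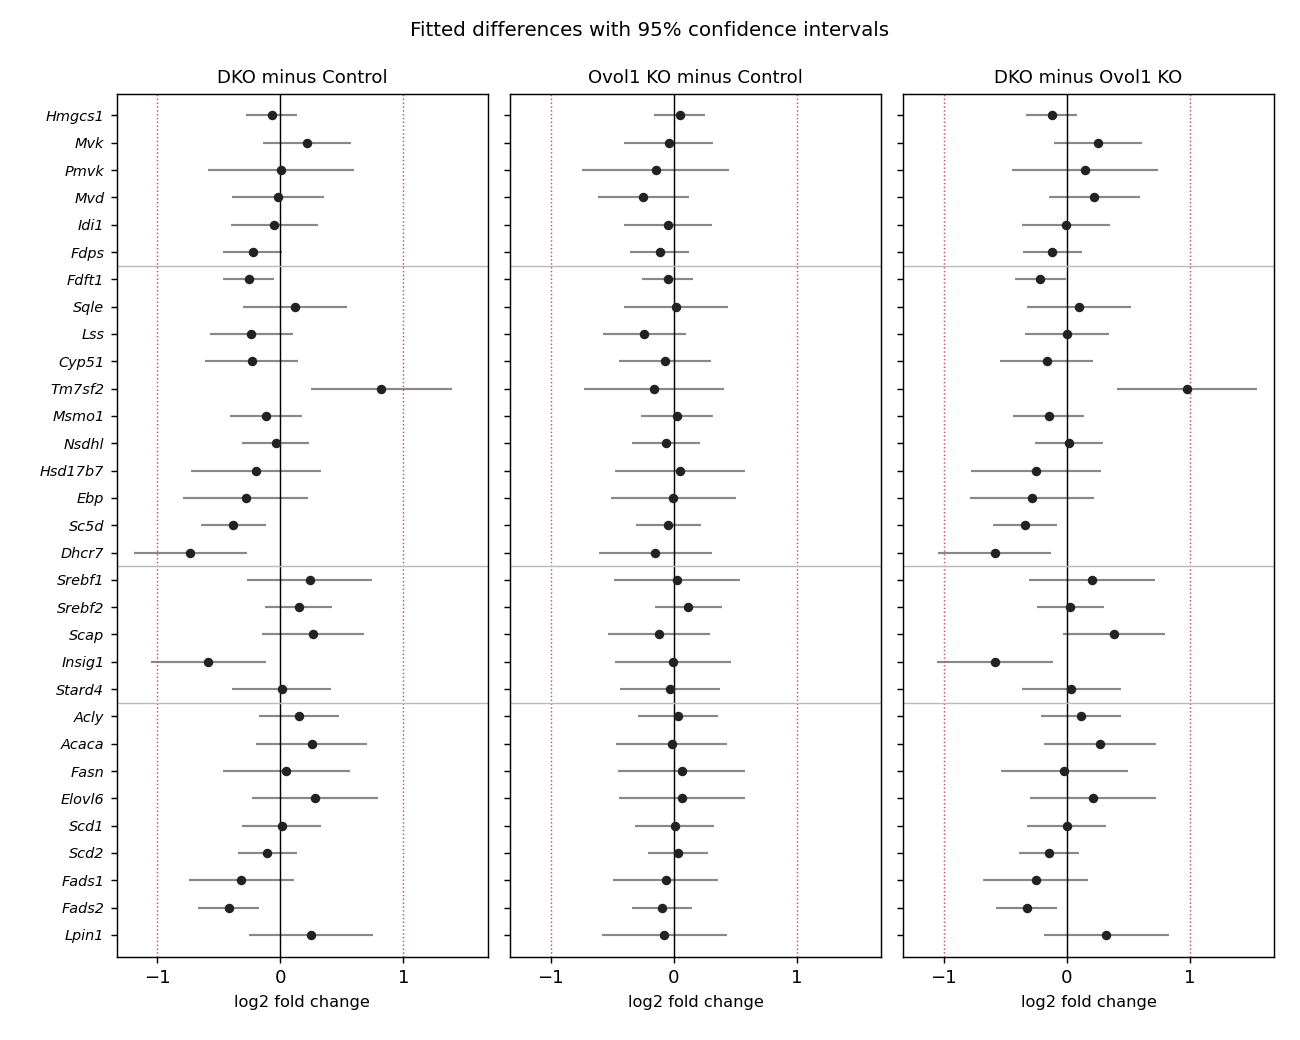
Fitted log2 fold change of each of the 31 genes in the 3 comparisons, with 95% confidence intervals from limma (bars) and dotted lines at 2-fold. Intervals in the Ovol1 KO panel all lie within 2-fold, and those of Tm7sf2, Dhcr7 and Insig1 reach past it in both panels with DKO.

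Counted against all 4 other arrays, both DKO arrays were lowest for 8 of the 31 genes (25.8%, against 13.4% of all genes): Hmgcs1, Fdps, Fdft1, Sc5d, Dhcr7, Insig1, Fads1 and Fads2. They were highest for 2 (6.45%, against 16.8%), Mvk and Tm7sf2. Against control alone, the groups did not overlap for 10 genes lower in DKO (21.5% of all genes) and 4 higher (23.1% of all genes). These are descriptions of 6 arrays, and no test was made of the list. The arrays compared also differed in Xist by more than 7 log2 units, and with the Xist level as a covariate 0 of the 31 genes were called, as were only 8 of all 19938, so that this count says nothing about the 31. Their median log2 fold change was then 0.14, against -0.12 over all genes.

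Loss of Ovol1 was read from Ovol1 KO against control. The controls were Ovol1+/- or carried K14-Cre with a floxed Ovol2 allele, so they were not wild type. Here 0 of the 31 genes passed in limma, as did 0% of all genes, and 0 had an unadjusted p below 0.05, against 0.813% of all genes. Same-numbered arrays of these groups deviated together (r = 0.687 across genes). The fit left this out, so its p values may be too large and its intervals too wide. The median log2 fold change was -0.040, against -0.057 over all genes, with 20 of 31 below 0 (64.5%, against 65.7% of all genes), and single genes ran from -0.25 for Mvd to 0.12 for Srebf2. For all 31 genes the 95% interval lay within 2-fold, as it did for 92.2% of all genes, and for 27 it lay within 1.5-fold. Mvd, which makes isopentenyl diphosphate, lay at 10.83 and 11.08 in control and 10.63 and 10.79 in Ovol1 KO, so that both Ovol1 KO arrays were below both controls (log2 fold change -0.25, 95% interval -0.62 to 0.13, adjusted p = 1.0). Lss, which closes the sterol ring, lay at 11.80 and 12.07 in control and 11.72 and 11.67 in Ovol1 KO (log2 fold change -0.24, 95% interval -0.58 to 0.099, adjusted p = 1.0). Srebf2 was above both controls on both Ovol1 KO arrays, at 12.18 and 12.03. In all, groups did not overlap for 3 genes higher (5.8% of all genes) and 6 lower (18.3% of all genes). Dhcr7, Tm7sf2, Fads2 and Fdps, named by the same rule, had log2 fold changes from -0.16 to -0.094, and Pmvk, Scap, Stard4, Fads1 and Scd2 had values from -0.15 to 0.037.

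DKO was then set against Ovol1 KO, which differs from it by the loss of Ovol2 and the K14-Cre transgene. Again 0 of the 31 genes passed in limma, against 2.15% of all genes called (0.657% higher, 1.49% lower), and 6 had an unadjusted p below 0.05, 1 higher and 5 lower, against 13.3% of all genes. The median was 0.0028, against 0.093 over all genes, and 15 of 31 lay below 0 (48.4%, against 35.6% of all genes). Tm7sf2 had the smallest p, with a log2 fold change of 0.98 (SE 0.24, 95% interval 0.41 to 1.55, limma adjusted p = 0.12). Dhcr7 stood at -0.58 (SE 0.19, adjusted p = 0.25), Insig1 at -0.58 (SE 0.20, adjusted p = 0.26), Sc5d at -0.34 (SE 0.11, adjusted p = 0.24) and Fads2 at -0.33 (SE 0.10, adjusted p = 0.23). Scap was above both Ovol1 KO arrays (11.19 and 11.27) on both DKO arrays (11.70 and 11.54), with a log2 fold change of 0.39 (adjusted p = 0.42). The remaining genes named by the rule, Mvk, Mvd, Hmgcs1, Srebf1, Lpin1 and Scd2, had values from -0.14 to 0.32. This comparison shares its DKO arrays with the first, so its values are not separate evidence for them. Dhcr7 was -0.33 without DKO 2, and Insig1 was -0.30 without Ovol1 KO 1. Without Ovol1 KO 1, which leaves only arrays alike in Xist, 0 of the 31 genes and 88 of all genes were called, and the median was 0.093, against 0.016 over all genes.

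Arrays of 1 genotype differed from each other as well. Replicate 1 was above replicate 2 for 20 of the 31 genes in control (47.6% of all genes), 25 in Ovol1 KO (31.8% of all genes) and 21 in DKO (47.4% of all genes). The median gap between replicates 1 and 2 was 0.13, 0.14 and 0.16, and 12 genes were higher on replicate 1 in all 3 genotypes, against 15.3% of all genes. Fasn and Hsd17b7 differed by 0.64 and 0.69 between the Ovol1 KO arrays, more than between any of their group means, and Insig1 by 0.57, close to its difference between DKO and control. The Ovol1 KO arrays also differed in Xist, at 4.59 and 11.97, and in the Y-linked genes. Spread between replicates and that difference cannot be told apart there. Melanocyte markers differed by replicate number too: their summed level was 11.94, 12.42 and 10.48 on the first replicate of control, of Ovol1 KO and of DKO, and 9.47, 9.30 and 9.46 on the second. Their part in the gaps between replicates was not tested.

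**Figure D3:**
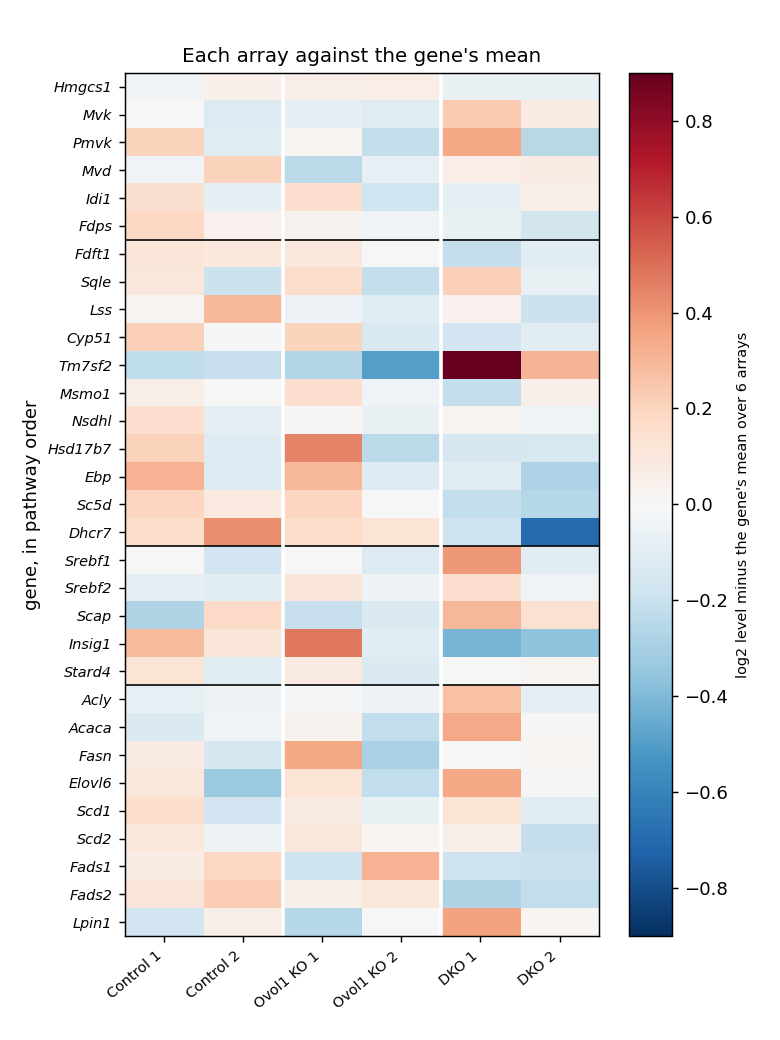
Level of each of the 31 genes on each array minus the gene's mean over the 6 arrays (log2 units, red above and blue below), in pathway order, with lines between the 4 roles. The DKO columns are blue for Sc5d, Dhcr7, Insig1 and Fads2 and red for Tm7sf2, and the paler columns of replicate 2 in control and Ovol1 KO sit below those of replicate 1 for most sterol genes.

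Other genes of lipid metabolism, from lists also made with earlier results known, were counted in the same way. Of 7 measured genes of sterol synthesis and SREBP processing outside the set, 0 passed in DKO against control. The smallest p values there belonged to Nus1, a subunit of the enzyme that makes dolichol, with a log2 fold change of -0.39 (95% interval -0.79 to 0.0037), and to Mbtps1, the protease that makes the first cut in SREBP, with 0.24. Mbtps1 was 0.047 without DKO 1 and 0.43 without DKO 2, and with the Xist covariate it was 0.022 and Nus1 0.0021. Of 14 genes of fatty acid oxidation and the PPAR receptors, 0 passed, and the smallest p values belonged to Cpt2 (0.72) and Acadl (-0.54), both of mitochondrial oxidation, which were 0.21 and -0.24 with the Xist covariate. Sterol efflux, storage and transport had 3 called falls among 11 measured genes, 0 rises and 8 that did not pass, against 2.26% of all genes lower and 0.943% higher.

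Abcg1, a transporter that exports cholesterol from cells, fell the most of these genes. It lay at 11.63 and 11.49 in control, 11.84 and 11.24 in Ovol1 KO, and 8.63 and 8.23 in DKO. Both DKO values were far below the other 4, and the gene fell by 3.13 on the log2 scale, 8.75-fold (SE 0.25, limma adjusted p = 0.0021). Against Ovol1 KO it fell by 3.11 (adjusted p = 0.0024). With the Xist level as a covariate the first difference was -2.51 and no longer called, and the second was -2.79 and called.

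Ch25h, which makes an oxysterol that holds back SREBP, lay at 7.998 and 8.17 in control, 7.58 and 8.43 in Ovol1 KO, and 5.66 and 6.18 in DKO. It fell by 2.17 against control (SE 0.31, limma adjusted p = 0.017), but its DKO values are dim and the call was lost without either DKO array. Npc1, which moves cholesterol out of lysosomes, lay at 11.43 and 11.21 in control, 11.43 and 10.96 in Ovol1 KO, and 10.28 and 10.25 in DKO. It fell by 1.05 (SE 0.19, adjusted p = 0.039), and lost its call without control 1 or either DKO array. With the Xist covariate neither was called, with Ch25h at -3.04 and Npc1 at -0.57.

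Of 19 other genes of fatty acid and glycerolipid synthesis, 1 rose, 2 fell and 16 did not pass in DKO against control, where 0.943% of all genes were called higher and 2.26% lower. Lpin2, a phosphatidate phosphatase like Lpin1, lay at 10.77 and 11.22 in control, 10.79 and 10.66 in Ovol1 KO, and 8.83 and 9.40 in DKO. It fell by 1.88 (SE 0.25, limma adjusted p = 0.013). It was not called without DKO 1 (-1.60) or with the Xist covariate (-1.76). Lpin1, by contrast, had a log2 fold change of 0.25 that did not pass, and the difference between the 2 genes was not tested. Mid1ip1, which aids the assembly of acetyl-CoA carboxylase, fell by 1.15 (adjusted p = 0.0091) on its brighter probe set, while its dimmer one, at 7.56 to 7.79 on all arrays, differed by 0.052. It was not called with the mean of both probe sets (-0.55), without DKO 1 (-1.08) or with the Xist covariate (-1.11). Fabp5, the epidermal fatty acid-binding protein gene, rose by 0.43 (limma adjusted p = 0.043), and this call was lost with any single array left out. It was lost in 12 of 16 alternative runs in all, among them the Xist covariate (0.51), robust eBayes and the offset of 64. Against Ovol1 KO, Lpin2 fell by 1.61 (adjusted p = 0.028), Mid1ip1 by 1.08 (adjusted p = 0.014) and Ch25h by 2.08 (adjusted p = 0.024). These 3 calls were lost with some single arrays left out, while the values stayed negative. Lpin2 was not called without Ovol1 KO 1 (-1.55), Ovol1 KO 2 (-1.67) or DKO 1 (-1.32), Mid1ip1 without any of the 4 arrays (-1.15 to -1.01), and Ch25h without Ovol1 KO 2 (-1.66), DKO 1 (-1.82) or DKO 2 (-2.35). For Ovol1 KO against control 0 genes of these 4 lists passed.

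**Figure D4:**
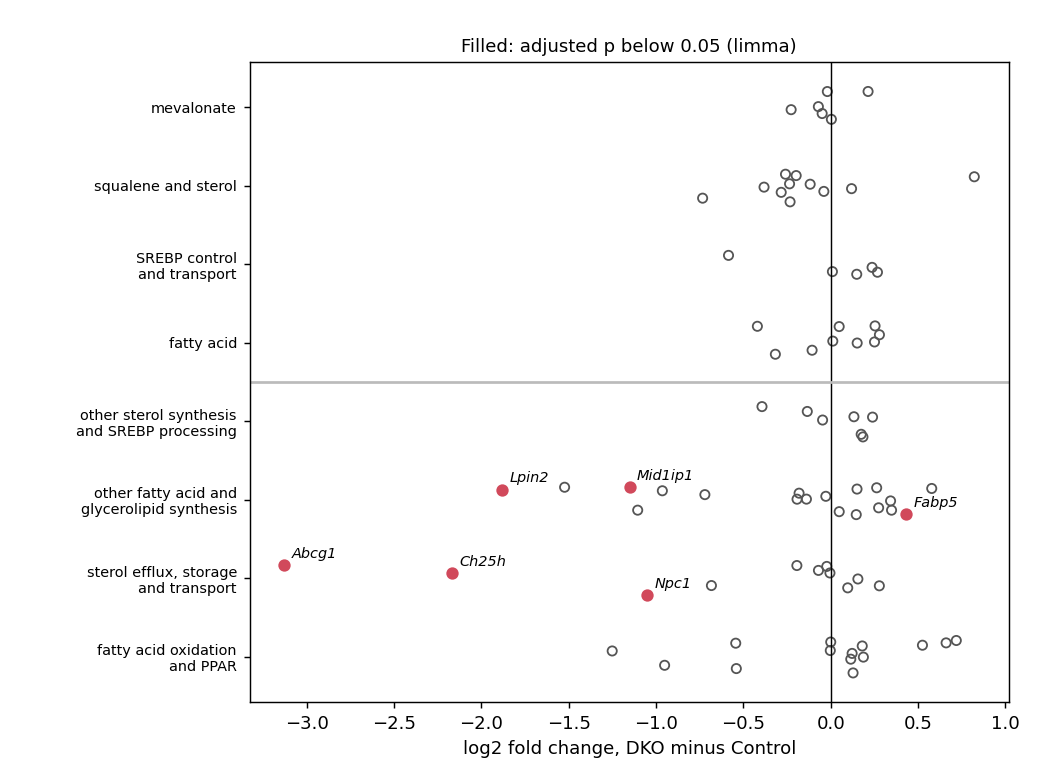
Log2 fold change of DKO against control for each gene of the 4 roles (above the line, 31 genes) and of 4 further lipid lists (below it), with filled points for a limma adjusted p below 0.05 and vertical scatter for display only. All 31 points above the line are open and lie between -0.73 and 0.82, and the 6 filled points are Abcg1, Ch25h, Npc1, Lpin2, Mid1ip1 and Fabp5.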

How the data were processed

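Expression was measured on 6 arrays in 3 genotypes. The values are linear intensities, 1 per probe set and array, as the authors deposited them. Affymetrix Expression Console 1.1.1 and PLIER 2.0 are named with no role, per the submitters' processing notes, and how background was corrected or arrays normalized is not stated. The table holds 35556 probe sets and no detection calls. Array medians ran from 174.2 to 203.6 and quartiles differed by up to 0.218 in log2, so log2(intensity + 16) was quantile-normalized. Of the probe sets, 21789 had 1 symbol, 1621 several and 12146 none in the platform annotation. Entrez identifiers of 21698 single-symbol probe sets matched RefSeq GRCm38.p6. The brightest probe set stood for each of 999 genes with more than 1. One limma 3.58.1 model (R 4.3.3) with a mean per genotype was fitted to the 6 arrays (trended eBayes), with 3 residual and 3.89 prior degrees of freedom and Benjamini-Hochberg adjustment over 19938 genes. Groups borrow spread from each other, and the number of arrays limits precision. The procedure was tested on simulated data of DKO against control with 200 changed genes. It called 22.2% of the true 2-fold changes and 75% of the true 4-fold changes. In that setting most true 2-fold changes were therefore missed. The genes and lists were chosen with earlier results of these data known. The genes named are the 3 of each role with the smallest p per comparison. Of each further list they are the called genes and the 2 with the smallest p. Fdft1, Fasn, Scd1, Krt1, Krt10 and Cidea were chosen after their values were seen. Replicates are called biological in the labels. Promoter sequences are RefSeq's for GRCm38.p6.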

Additional observations from a re-analysis of the deposited data

How the results depend on the processing

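The count of 0 called genes among the 31 held in all 3 comparisons under each alternative run: offsets of 1 and 64, the values as deposited, the dimmest 30% of genes left out, eBayes without a trend or robust, a gene's probe sets averaged, a fit of just the 4 arrays compared, the replicate block, the Xist covariate and each array left out. With single arrays left out the lone array of a genotype is assumed to vary like the others. A count of 0 cannot show stability of single differences. Same-numbered arrays of control and Ovol1 KO deviated together (r = 0.687 across genes), against 0.151 for control and DKO and 0.087 for Ovol1 KO and DKO, but the labels state no shared litter or day. The replicate number as a block gave 0 called genes of the 31 in each comparison, with smallest adjusted p = 0.060, 1.0 and 0.059 (limma, DKO against control, Ovol1 KO against control, DKO against Ovol1 KO), while calls over all genes went from 639 to 1069 and from 429 to 805 in the comparisons with DKO. A fit of control and Ovol1 KO arrays alone with the block, chosen after seeing the data, called 0 of the 31 and 133 of all genes. With the Xist covariate, calls over all genes were 8 and 73 in the comparisons with DKO, and the median of the 31 was 0.14 for DKO against control and 0.11 for DKO against Ovol1 KO. With single arrays left out the 3 medians ran from -0.14 to 0.045, from -0.13 to 0.054 for Ovol1 KO against control and from -0.069 to 0.093 for DKO against Ovol1 KO. Among 50 values of named genes under 812 alternatives, 763 kept direction and status as called or not. Another 39 lost a call and 10 changed sign, none of these 10 called. The 39 were all outside the 31 genes, which had no call to lose. For a value not called at first, keeping its status means only that it stayed uncalled. Under the Xist covariate Nus1 became 0.0021 in DKO against control and Stard4 became 0.072 in Ovol1 KO against control. With single arrays left out, values in Ovol1 KO against control ran from -0.30 to 0.0076 for Pmvk, -0.34 to 0.10 for Scap, -0.14 to 0.085 for Stard4, -0.034 to 0.11 for Scd2 and -0.31 to 0.18 for Fads1, and in DKO against Ovol1 KO from -0.033 to 0.45 for Srebf1. The cause was not tested.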
